A study of Mus musculus with 6 samples.

Results

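The 8 genes Prg4, Aspa, Icam2, Garnl3, Adgre1, Lbp, Saa3 and Naip1 are markers of large, resident peritoneal macrophages. They were taken by symbol from a table of 48709 genes. Each of the 8 symbols was found once, and all 8 passed the filter on low counts. The mRNA came from freshly isolated F4/80+ CD11b+ macrophages of C57BL/6 mice, obtained by peritoneal lavage and flow sorting. Both genotypes, wild-type and Zeb1 (+/-) heterozygous, were represented by 3 libraries, and the cells had received no treatment. Every library pooled 2 mice, whose age was 6 to 8 weeks. Values of single libraries are listed in the order of the replicate numbers 1, 2 and 3 of a genotype. The titles call these Set 1, Set 2 and Set 3 in both genotypes and do not say whether a set pairs the genotypes. The labels do not say how the Zeb1 allele was made. They name no litters and do not say whether the pools were sorted on different days, so p-values measure only the spread between these pools.

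Large cavity macrophages settle in the peritoneum early, renew themselves there, and depend on the transcription factor GATA6 and on retinoic acid from the mesothelium. They carry high F4/80, CD11b and ICAM2, while a smaller population of monocyte-derived macrophages carries CCR2 and MHC class II. ZEB1 is a zinc-finger factor that binds E-box sequences and often represses the genes it binds. The 8 markers fall into genes for surface, matrix and cell structure or metabolism (Prg4, Icam2, Adgre1, Aspa, Garnl3) and effectors of defence (Lbp, Saa3, Naip1). Lubricin, the mucin-like product of Prg4, coats joints and serous surfaces. ICAM2 is an adhesion molecule that binds the integrin LFA-1, and Adgre1 encodes F4/80 itself. Aspa encodes aspartoacylase, which splits N-acetylaspartate into acetate and aspartate, and Garnl3 encodes a protein with a RapGAP domain. LBP hands lipopolysaccharide to CD14, SAA3 is an acute-phase protein of the serum amyloid A family, and NAIP1 senses the needle protein of bacterial type III secretion systems and activates the NLRC4 inflammasome.

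All 8 genes are protein-coding and were placed on GRCm38. Prg4 (ENSMUSG00000006014.16) lies on chromosome 1 from 150449412 to 150466165, and Icam2 (ENSMUSG00000001029.15) on chromosome 11 from 106377656 to 106388075. Garnl3 (ENSMUSG00000038860.15) lies on chromosome 2 from 32986224 to 33131654, and Aspa (ENSMUSG00000020774.9) on chromosome 11 from 73304992 to 73329596. Saa3 (ENSMUSG00000040026.8) lies on chromosome 7 from 46711998 to 46715700, and Naip1 (ENSMUSG00000021640.5) on chromosome 13 from 100407764 to 100452869. These 6 are on the minus strand. Adgre1 (ENSMUSG00000004730.14, chromosome 17, 57358691 to 57483527) and Lbp (ENSMUSG00000016024.9, chromosome 2, 158306493 to 158332852) are on the plus strand. The end of Prg4 shares 204 exon bases with Tpr on the opposite strand, and whether counting used strand is not stated. Tpr had 40960 counts over the 6 libraries, while Prg4 had at least 220526 in each. Of all 50-base stretches in the transcripts of Naip1, 31.5% also occur in other genes, most of them in Naip3 (22.5%), so the level of Naip1 is uncertain. The share was 3.57% for Saa3, 1.11% for Garnl3, 0.187% for Lbp and 0 for the other four.

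Start-site windows were at hand in RefSeq (GRCm38.p6) for 4 of the markers, Garnl3 (with 2 start sites), Saa3, Aspa and Naip1. They were searched on both strands for CACCTG, the E-box bound by ZEB1, for AGATAA and TGATAA, the letters bound by GATA factors, and for GAGGAAG, a core of PU.1 sites. The searched windows ran from 250 bases before to 50 after the start site. Of the 5 marker windows only the one of Saa3 held any of these letters. It held CACCTG with its first base 4 bases before the start site. It also held TTATCT, the reverse complement of the first GATA form, with its first base 134 bases before the start site. Among 32851 windows of the same length, 20.2% held CACCTG and 11.2% AGATAA on either strand, 9.05% TGATAA and 13.6% GAGGAAG. A match is a description of the letters and not of binding. The windows of Saa3, of Garnl3 and of Aspa are shown because Saa3 alone held matches, while Garnl3 and Aspa had the highest fold changes of the markers. They are given 5′ to 3′ on the minus strand from 250 bases before to 20 after the start site, with the matched letters in capitals. They span chr7:46715657-46715926 for Saa3, chr2:33131417-33131686 for the upstream start site of Garnl3, and chr11:73324618-73324887 for Aspa, whose RefSeq start site lies inside the annotated gene and not at its edge.
Saa3: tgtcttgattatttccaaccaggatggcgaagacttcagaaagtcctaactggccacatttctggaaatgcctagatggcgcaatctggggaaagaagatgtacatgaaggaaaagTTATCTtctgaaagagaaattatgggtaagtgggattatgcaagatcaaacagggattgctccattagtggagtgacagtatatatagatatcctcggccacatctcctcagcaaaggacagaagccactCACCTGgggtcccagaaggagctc
Garnl3: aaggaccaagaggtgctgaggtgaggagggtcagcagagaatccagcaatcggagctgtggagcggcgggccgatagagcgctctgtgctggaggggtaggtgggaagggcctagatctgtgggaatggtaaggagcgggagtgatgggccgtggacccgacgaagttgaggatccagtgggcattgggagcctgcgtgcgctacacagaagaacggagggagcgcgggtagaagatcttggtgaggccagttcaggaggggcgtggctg
Aspa: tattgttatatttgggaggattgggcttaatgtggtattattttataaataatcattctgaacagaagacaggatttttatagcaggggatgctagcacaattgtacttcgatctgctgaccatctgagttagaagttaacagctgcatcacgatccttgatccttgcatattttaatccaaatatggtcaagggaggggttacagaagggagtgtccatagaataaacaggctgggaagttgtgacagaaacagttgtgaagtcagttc

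Total counts per library ran from 17859872 to 42165006. Each marker had at least 1060 counts in each library (the lowest being Aspa in wild-type replicate 3), where the counting error is 3.07%. Levels are in CPM, which are counts scaled to library size. Zeb1 was at 5.44, 7.56 and 7.22 CPM in the wild-type pools and 3.85, 3.45 and 3.62 CPM in the heterozygous pools. The groups did not overlap, and its edgeR Benjamini-Hochberg adjusted p was 0.0522. Small structural RNAs were at 4.14 and 8.69 CPM in wild-type replicates 1 and 2 but at 42.2 to 45.5 CPM in the other 4 libraries. When this division entered the model (the structural-RNA term), wild-type replicate 3 stood alone against the Zeb1 (+/-) libraries, and values from that fit are given where it moved a call or a direction. Genes that define macrophages were all present: the 10 genes of that list, Csf1r, Cd68 and Lyz2 among them, were all tested. They summed to between 43210 and 61295 CPM in every library, of which Lyz2 alone made up between 34210 and 52824 CPM. None of the 10 passed by edgeR. Below all wild-type libraries were 2 of them, Csf1r and Spi1, as were 10.3% of tested genes.

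Defining markers of most other cells that can express these genes were at or near 0, while those of B cells, which also carry ICAM2, were not. None of 15 mesothelial and fibroblast markers, whose cells also make Prg4 and Saa3, passed the filter on low counts. Their sum was 0.69 to 2.02 CPM among wild-type pools and 0.558 to 0.853 among Zeb1 (+/-) pools, with Pdgfra at 0. Endothelial markers, whose cells carry ICAM2, summed to 1.47 to 2.49 and 2.01 to 2.25 CPM, with 1 of 8 tested (Egfl7) and Emcn at 0. Eosinophils also carry F4/80. Prg2 and Epx, among the genes that mark them, had 0 counts in every library. That allows up to 0.168 CPM in the shallowest (an upper limit of 3 counts, for counting error only). The list of eosinophil and mast cell genes summed to 3.55 to 7.86 and 4.91 to 6.43 CPM, and none of its 7 tested genes passed by edgeR (2 at an unadjusted p under 0.05, 0 by DESeq2). T and NK cell markers summed to 0.994 to 2.16 CPM and 0.883 to 1.28 CPM, and neutrophil markers to 1.24 to 1.86 CPM and 1.28 to 2.81 CPM with Mpo at 0. B cell markers were present and had lower values in the Zeb1 (+/-) libraries. The 12 genes summed to between 139 and 278 CPM among wild-type pools and between 85.1 and 114 among Zeb1 (+/-) pools, and the highest was wild-type replicate 3. Below all wild-type libraries were 10 of the 12, as were 10.3% of tested genes. None passed by edgeR, with 10 at an unadjusted p under 0.05 (8.26% of tested genes were lower at that level). DESeq2 called 6 of them lower, where it called 2.03% of genes lower. With the structural-RNA term 6 fell by edgeR, against 0.209% of tested genes in that direction. Their part in the marker values was not tested.

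The markers covered a wide range of abundance. Per kilobase of exon, the wild-type level was 2721 ± 134 CPM per kb for Prg4 and 2145 ± 548 for Saa3 (SD, n = 3 each). By the mean over all 6 libraries these stood at ranks 9 and 16 of all tested genes. Prg4 alone took 1.11% to 1.51% of the counts of a library. Adgre1 followed at 675 ± 11.9 and Icam2 at 286 ± 20.8 CPM per kb. The other four were far lower on this scale, Lbp at 37.3 ± 4.996, Naip1 at 21.8 ± 5.24, Garnl3 at 12.5 ± 1.34 and Aspa at 8.26 ± 1.38 CPM per kb. Even Aspa was above 71.5% of tested genes by the mean over all 6 libraries. The ranges over the 6 libraries were separate between Saa3 and Adgre1, Adgre1 and Icam2, and Icam2 and Lbp. They overlapped between Prg4 and Saa3, Lbp and Naip1, Naip1 and Garnl3, and Garnl3 and Aspa. Within a library the upper gene of these 4 pairs was still above the lower in all 6, except that Naip1 was above Lbp in Zeb1 (+/-) replicate 1.

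**Figure D1:**
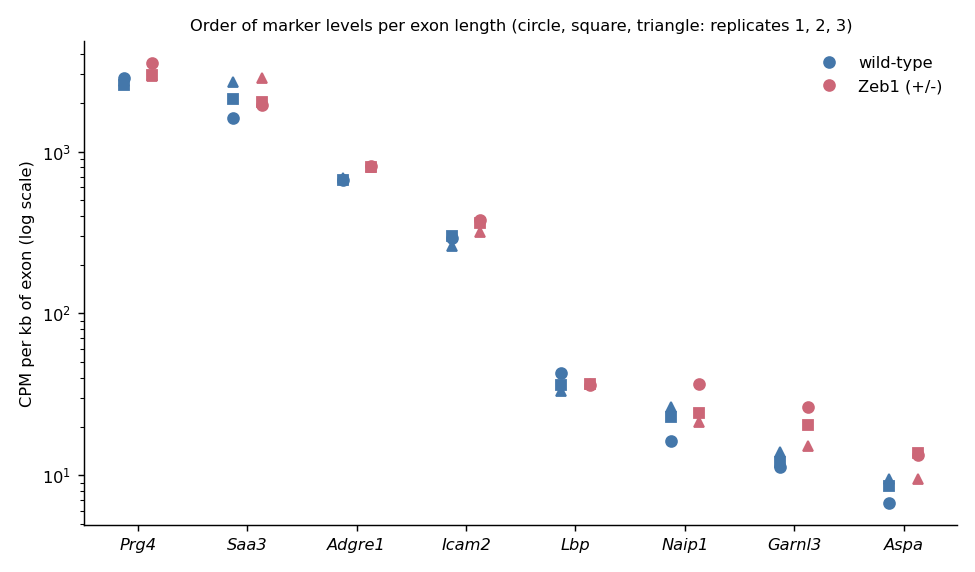
Level of each marker in CPM per kilobase of exon (vertical axis, log scale), ordered by the wild-type mean, with 1 point per library, wild-type in blue and Zeb1 (+/-) in red. Prg4 and Saa3 sit at 1615 or above, Adgre1 and Icam2 between 262 and 817, and the other four below 43.

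The genotype comparison asked whether these identity genes differ between wild-type and Zeb1 (+/-) macrophages. By the edgeR quasi-likelihood test 0 of 8 markers passed an adjusted p of 0.05, where 0.587% of 12940 tested genes passed in either direction. At an unadjusted p under 0.05 there were 5 of 8, all higher in Zeb1 (+/-), against 6.30% of tested genes that were higher at that level. With the structural-RNA term there were 2 at that level, Icam2 and Adgre1, against 3.46% of tested genes, and Prg4, Aspa and Garnl3 no longer reached it. The same 5 markers, Prg4, Aspa, Icam2, Garnl3 and Adgre1, had every Zeb1 (+/-) library above every wild-type library, as did 9.60% of tested genes. Lbp, Saa3 and Naip1 had overlapping groups. The median log2 fold change of the 8 (Zeb1 (+/-) over wild-type, as throughout) was 0.28, and that of all tested genes −0.00038. DESeq2 called 4 of the 8 higher (Aspa, Icam2, Garnl3 and Adgre1), where it called 0.913% of genes higher, and limma-voom called 0. In bulk RNA a larger share of cells that express a gene cannot be told apart from more of its RNA per cell. The markers were chosen with earlier results of these data known. Their counts beside the shares of all tested genes are therefore a description and not a test.

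**Figure D2:**
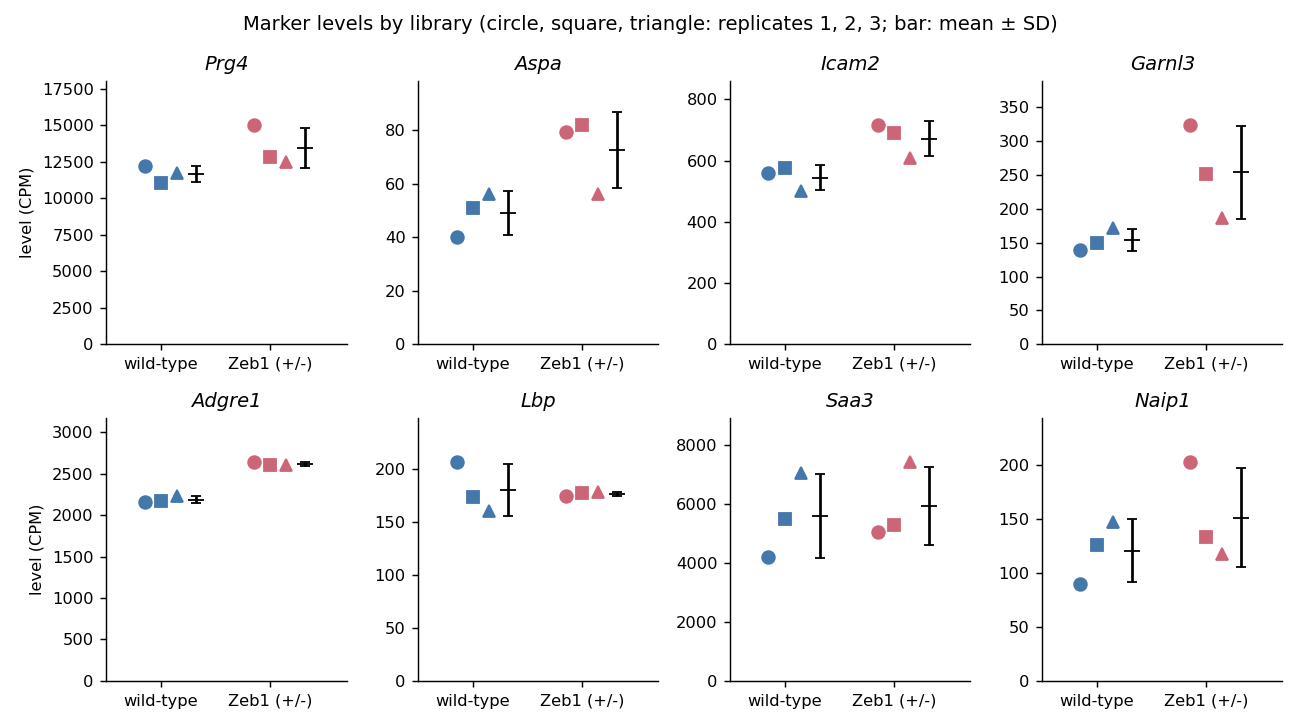
Level of each marker in CPM in each library, with wild-type in blue and Zeb1 (+/-) in red, a symbol for each replicate number, and the mean ± SD (n = 3) as a black bar. In Prg4, Aspa, Icam2, Garnl3 and Adgre1 every Zeb1 (+/-) point lies above every wild-type point, by 0.103 CPM in Aspa and by 373 CPM in Adgre1.

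Adgre1, whose protein was one of the markers of the sort in both genotypes, was the steadiest of the 8 in wild-type. Its level was 2159, 2170 and 2230 CPM in the wild-type pools and 2646, 2604 and 2606 CPM in the heterozygous pools. The groups were apart by 373 CPM, while the SDs within the genotypes were 38.6 and 23.8 CPM. Its log2 fold change was 0.26 ± 0.062 (SE; 95% confidence interval 0.12 to 0.40), or 1.198-fold, with an edgeR adjusted p of 0.111. Its fold change moved little over 14 other settings, from 0.23 to 0.28, and its adjusted p ran from 0.0044 (DESeq2) to 0.568. The related genes Adgre4 and Adgre5, which encode adhesion receptors of the same family, had wild-type levels of 203 ± 2.15 and 1040 ± 55.1 CPM against 201 ± 12.6 and 996 ± 65.6 in heterozygous pools. Neither passed by edgeR (0 at an unadjusted p under 0.05, 0 by DESeq2).

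Icam2 was at 558, 575 and 499 CPM in the wild-type pools and 716, 689 and 607 CPM in the heterozygous pools. Replicate 3 was the lowest library of both genotypes, and the groups were separate by 31.97 CPM. This was a log2 fold change of 0.30 ± 0.085 (SE; 95% confidence interval 0.11 to 0.49; edgeR adjusted p = 0.163), and it stayed between 0.24 and 0.42 over the other settings. Of its family, Icam1 was at 36.3 ± 3.95 and 28.6 ± 2.73 CPM (mean ± SD, n = 3 each) in wild-type and Zeb1 (+/-), with a log2 fold change of −0.34 (edgeR adjusted p = 0.171), opposite in sign to Icam2. Icam4 and Icam5 did not pass the filter. Itgal, the alpha chain of the LFA-1 integrin that binds ICAMs, fell from 18.4 ± 2.10 to 10.5 ± 1.87 CPM (−0.79 on the log2 scale, edgeR adjusted p = 0.0482). The fall of Itgal did not pass when replicate 1 or 2 of either genotype was left out, nor with the structural-RNA term. Its adjusted p lay between 3.6e-05 and 0.379 under the 14 other settings. B cells, whose markers were lower in the same libraries, also carry LFA-1, and their part in this value was not tested. Itgb2, the beta chain that it shares with CD11b, was at 2557 ± 23.4 and 3025 ± 172 CPM (log2 fold change 0.24, edgeR adjusted p = 0.165). Its Zeb1 (+/-) libraries were all above the wild-type ones, as in 9.60% of tested genes. Of 4 tested genes among the ICAM family and its ligands, 3 had an unadjusted p under 0.05 by edgeR. At that level 6.30% of tested genes were higher and 8.26% lower. DESeq2 called 1 of the 4 higher and 1 lower, where it called 0.913% and 2.03% of genes.

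Prg4 was at 12182, 11042 and 11713 CPM in the wild-type pools and 15016, 12809 and 12466 CPM in the heterozygous pools. The groups were separate by 284 CPM, which is less than the SD of either group (573 and 1384 CPM). Prg4 had a log2 fold change of 0.21 ± 0.090 (SE; 95% confidence interval 0.00225 to 0.41; edgeR adjusted p = 0.342). Without Zeb1 (+/-) replicate 1, its highest library, it was 0.12. Of 3 receptors described to bind lubricin (Cd44, Tlr2 and Tlr4), none passed by edgeR (1 at an unadjusted p under 0.05, 0 by DESeq2). That 1 was Tlr2, which was lower, as were 8.26% of tested genes at that unadjusted level. Cd44 was at 310 ± 28.5 and 304 ± 32.6 CPM and Tlr2 at 116 ± 17.9 and 89.6 ± 18.9 CPM in wild-type and Zeb1 (+/-).

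Garnl3 had the highest fold change of the markers. It was at 139, 150 and 172 CPM in the wild-type pools and 324, 252 and 186 CPM in the heterozygous pools. The Zeb1 (+/-) libraries were spread widely, from 14.4 CPM above the highest wild-type library to 324 CPM. The coefficient of variation was 27.1% among them and 10.8% in wild-type. Garnl3 had a log2 fold change of 0.72 ± 0.17 (SE; 95% confidence interval 0.33 to 1.11), or 1.65-fold, with an edgeR adjusted p of 0.112. When Zeb1 (+/-) replicate 3 was left out it was 0.91 and passed, as did 0.276% of genes in the higher direction in that fit. When Zeb1 (+/-) replicate 1 was left out it was 0.52. Its adjusted p lay between 1.74e-05 and 0.608 under the other settings. Other genes for RapGAP proteins, for the Rap GTPases they act on and for a Rap exchange factor were looked up beside it. None of these 9 genes passed by edgeR (2 at an unadjusted p under 0.05, 0 by DESeq2), and their median log2 fold change was −0.058. At that unadjusted level 6.30% of tested genes were higher and 8.26% lower. The one with the smallest p was the GTPase gene Rap1b, at 911 ± 56.8 and 1027 ± 34.2 CPM in wild-type and Zeb1 (+/-).

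Aspa was at 40.2, 51.1 and 56.3 CPM in the wild-type pools and 79.4, 82.1 and 56.4 CPM in the heterozygous pools. The groups were only just separate, by 0.103 CPM between the third pools of each genotype. Aspa had a log2 fold change of 0.57 ± 0.16 (SE; 95% confidence interval 0.21 to 0.92), or 1.48-fold, with an edgeR adjusted p of 0.159. It was 0.37 with the structural-RNA term. Without Zeb1 (+/-) replicate 3 it was 0.72 and passed, and its adjusted p lay between 0.0004 and 0.706 under the other settings. Acy1, an aminoacylase that takes acetyl groups from other amino acids, rose by 0.45 on the log2 scale, from 19.98 ± 1.04 to 27.4 ± 0.314 CPM (edgeR adjusted p = 0.0297). It was the 1 gene of 5 around N-acetylaspartate that passed, where 0.587% of all tested genes passed in either direction. Acy1 did not pass when wild-type replicate 2 or 3 or Zeb1 (+/-) replicate 1 or 2 was left out, nor with the structural-RNA term. Its adjusted p lay between 0.0012 and 0.18 under the other settings. Nat8l, the enzyme that makes N-acetylaspartate, was at 76.4 ± 6.67 and 62.3 ± 4.86 CPM (log2 fold change −0.30, edgeR adjusted p = 0.165).

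The 3 effectors had groups that overlapped. Lbp was at 207, 174 and 160 CPM in the wild-type pools and 174, 177 and 178 CPM in the heterozygous pools. The Zeb1 (+/-) libraries had a coefficient of variation of 1.22% and lay inside the wild-type range. The log2 fold change was −0.030 ± 0.092 (SE), and its 95% confidence interval of −0.24 to 0.18 stands for 0.848-fold to 1.13-fold (edgeR adjusted p = 0.902). Its sign turned without wild-type replicate 1 (0.082) and with the structural-RNA term (0.14). Among the genes that act with LBP in sensing lipopolysaccharide, Cd14, the receptor that takes lipopolysaccharide from LBP, was at 408 ± 39.2 and 381 ± 10.002 CPM, and Tlr4 at 92.3 ± 3.34 and 87.5 ± 4.25 CPM. Of 8 tested genes of this list none passed by edgeR (1, the lipid transfer gene Pltp, at an unadjusted p under 0.05, and 0 by DESeq2), and the median was −0.12. Pltp was lower, as were 8.26% of tested genes at that unadjusted level.

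Saa3 varied more between libraries of 1 genotype than between genotypes. It was at 4210, 5502 and 7062 CPM in the wild-type pools and 5046, 5307 and 7451 CPM in the heterozygous pools. Replicate 3 was the highest and replicate 1 the lowest library in both genotypes, and the titles do not say whether a set number pairs the genotypes. Wild-type pools averaged 5591 ± 1428 CPM and heterozygous pools 5935 ± 1320 CPM (SD), and the log2 fold change was 0.086 ± 0.20 (SE; 95% confidence interval −0.35 to 0.53; edgeR adjusted p = 0.87). Its sign turned when wild-type replicate 1 (−0.081) or Zeb1 (+/-) replicate 3 (−0.11) was left out and with the structural-RNA term (−0.25). The other serum amyloid genes were nearly silent: Saa1, Saa2 and Saa4 did not pass the filter and together reached 0.579 CPM at most.

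Naip1 was at 89.7, 126 and 147 CPM in the wild-type pools and 203, 133 and 118 CPM in the heterozygous pools. Zeb1 (+/-) replicate 1 was above all other libraries, and the other two of its genotype lay inside the wild-type range. The log2 fold change was 0.32 ± 0.22 (SE; 95% confidence interval −0.17 to 0.82; edgeR adjusted p = 0.53), and 0.064 without Zeb1 (+/-) replicate 1. It was 0.15 without wild-type replicate 1 and 0.040 with the structural-RNA term. Its paralogues, which sense bacterial flagellin (Naip5 and Naip6) and the rod of secretion systems (Naip2), were at 243 ± 25.5, 181 ± 14.1 and 163 ± 5.04 CPM in wild-type pools. Their heterozygous levels were 240 ± 30.9, 164 ± 26.8 and 176 ± 8.81 CPM. Nlrc4, their common partner, was at 24.8 ± 0.909 and 23.7 ± 4.07 CPM. Of 9 tested genes of this list none passed by edgeR (2 at an unadjusted p under 0.05, 0 by DESeq2). At that unadjusted level 6.30% of tested genes were higher and 8.26% lower. Pycard, the adaptor of inflammasomes, had the smallest p, at 212 ± 13.4 and 250 ± 25.5 CPM.

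The markers did not spread evenly over the libraries. Zeb1 (+/-) replicate 1 was the highest of all 6 libraries for 5 of the 8 markers, and wild-type replicate 1 the lowest for 5. Within the Zeb1 (+/-) group, replicate 3 was the lowest for 5 markers, Prg4, Aspa, Icam2, Garnl3 and Naip1. Within the wild-type group, replicate 3 was the highest for 5, Aspa, Garnl3, Adgre1, Saa3 and Naip1. Wild-type replicate 3 was also the wild-type library with structural RNA at the level of the Zeb1 (+/-) libraries. The part of that split in the marker values was not tested beyond the fit with the structural-RNA term, in which the log2 fold changes were 0.56 for Garnl3, 0.42 for Icam2, 0.23 for Adgre1 and 0.20 for Prg4. None of the 8 passed in that fit.

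**Figure D3:**
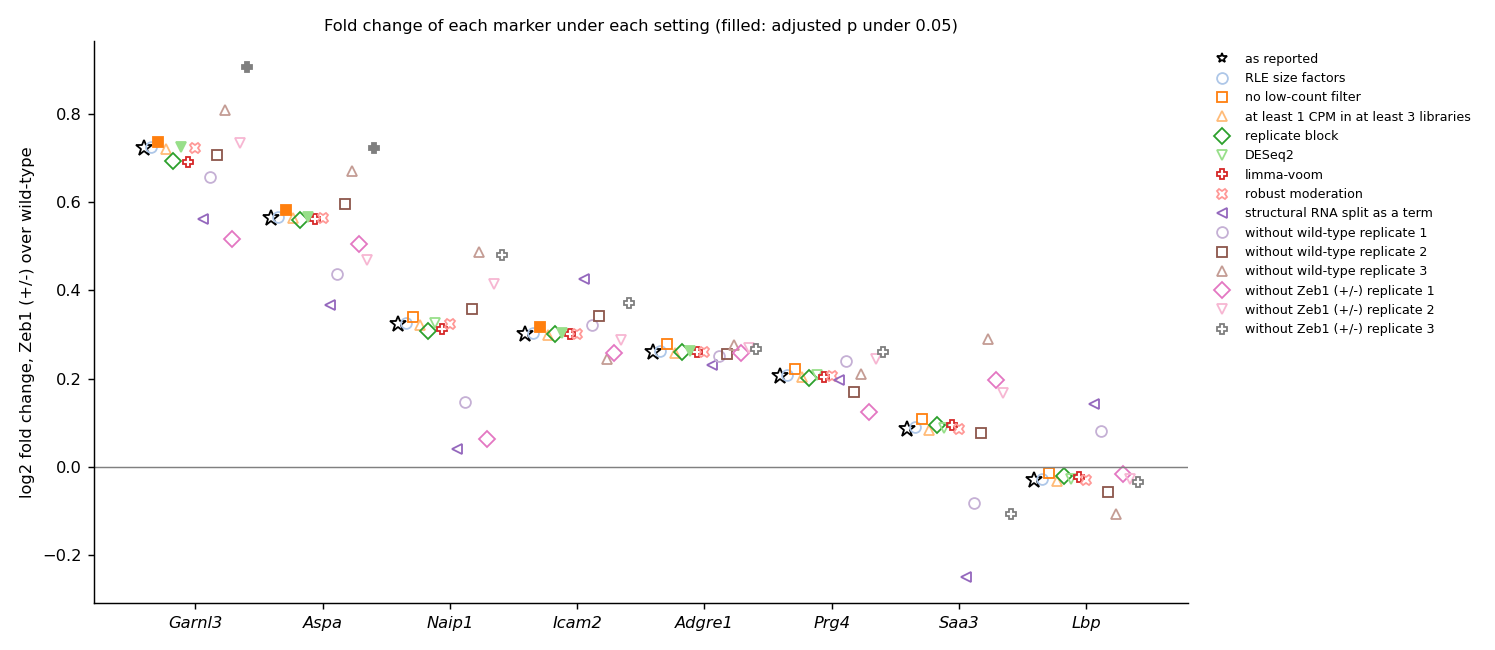
Log2 fold change of each marker (vertical axis) as reported (star) and under 14 other settings, with filled symbols where the adjusted p was under 0.05. Garnl3, Aspa, Naip1, Icam2, Adgre1 and Prg4 stay above 0 in every setting shown, while Saa3 and Lbp fall on both sides of 0.

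By values over the 6 libraries, each marker had genes that rose and fell with it. They are given as a description, picked for the highest Pearson r among 8328 genes with a mean of at least 10 CPM. Pearson r was taken on log2 CPM, and genes of 1 library share its depth and genotype. It does not compare the size of changes, and a high r is easily found among so many genes over 6 libraries. For Garnl3 the nearest were Prtg (r = 0.997) and Kifap3 (0.993), and 153 genes exceeded 0.9. For Aspa they were Cdc42ep3 (0.998) and C1rl (0.994), for Naip1 Ttc25 (0.996) and Dhrs3 (0.992), and for Adgre1 Dlat (0.995) and Stard13 (0.992). For Icam2 they were Pi16 and Vps45 (both 0.986), for Prg4 Oxsm (0.983) and Plcb4 (0.981), and for Lbp Nelfa (0.989) and Golph3l (0.976). For Saa3 they were Ept1 (0.978) and Opa1 (0.963), and only 10 genes exceeded 0.9.

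Among 30 other genes of large cavity macrophages, 1 fell, 0 rose and 29 did not pass by edgeR, where 0.433% of tested genes fell. DESeq2 called 6 higher and 2 lower, where it called 0.913% and 2.03% of genes. With the structural-RNA term the 1 that passed was another gene, in the other direction. Hdc, which encodes the enzyme that makes histamine, then rose by 1.04 on the log2 scale (edgeR adjusted p = 0.0484, against 0.0309% of genes higher), while in the reported fit it was at 0.72 and did not pass (adjusted p = 0.059). There were 10 above all wild-type libraries, against 9.60% of tested genes, and 3 below, against 10.3%. Their median log2 fold change was 0.14, with 23 of 30 positive. Fcna, a ficolin that binds microbial sugars, was the gene that fell, from 1178 ± 141 to 758 ± 89.5 CPM (−0.64 on the log2 scale, edgeR adjusted p = 0.0482). Among the fits with 1 library left out, Fcna passed only without Zeb1 (+/-) replicate 3. It did not pass with the structural-RNA term (adjusted p = 0.0612), and its adjusted p lay between 2.18e-06 and 0.183 under the other settings. Gata6, named because it sets the identity of these cells, was at 103 ± 8.83 and 127 ± 3.31 CPM. All its Zeb1 (+/-) libraries were above all wild-type ones (log2 fold change 0.31, edgeR adjusted p = 0.115). The 3 genes below all wild-type libraries were Fcna, Marco and Apoc2. Marco and Apoc2 had log2 fold changes of −0.84 and −0.36 and did not pass (edgeR adjusted p = 0.134 and 0.0821).

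Of 18 tested genes on a list for small cavity macrophages, 10 fell, 0 rose and 8 did not pass, where 0.433% of all tested genes fell. Their median log2 fold change was −0.53, with 16 negative and 2 positive (Cd209a and Clec10a). Their sum was 6334 to 6577 CPM among wild-type pools and 4353 to 4474 among Zeb1 (+/-) pools. The 10 included all 4 genes of MHC class II presentation on the list (H2-Aa, H2-Ab1, H2-Eb1 and Cd74), which B cells also express, and 6 of the other 14. B cell markers, at 139 to 278 CPM in wild-type and 85.1 to 114 CPM in Zeb1 (+/-) pools, were lower in the same libraries, and their part in this fall was not tested. Mrc1, the mannose receptor, fell by 0.97 on the log2 scale, Fcrls, an Fc receptor-like gene, by 0.65, the chemokine receptor gene Ccr2 by 0.62 and the MHC class II gene H2-Eb1 by 0.54 (edgeR adjusted p at most 0.0185). Each of the 6 leave-out fits and the fit with the structural-RNA term kept Mrc1 past the threshold. Fcrls did not pass when wild-type replicate 2 was left out, Ccr2 and H2-Eb1 did not pass when replicate 2 of either genotype was left out, and these 3 did not pass with the structural-RNA term. Among all tested genes, 76 passed in the reported fit. Only 5 of all passed once wild-type replicate 2 was dropped, and 28 and 11 once heterozygous pool 1 or 2 was dropped. Dropping any other library left 61 to 127 of all genes and 7 to 11 of these 18. The number of these 18 genes that passed was 1 when wild-type replicate 2 was left out. It was 5 and 2 when Zeb1 (+/-) replicate 1 or 2 was left out, and 2 with the structural-RNA term. Whether the transcripts of the small cavity list come from monocyte-derived macrophages in these libraries was not tested. Nor was it tested whether the 8 markers differ from this list or from the other large cavity genes. These lists were chosen with earlier results of the same libraries known.

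**Figure D4:**
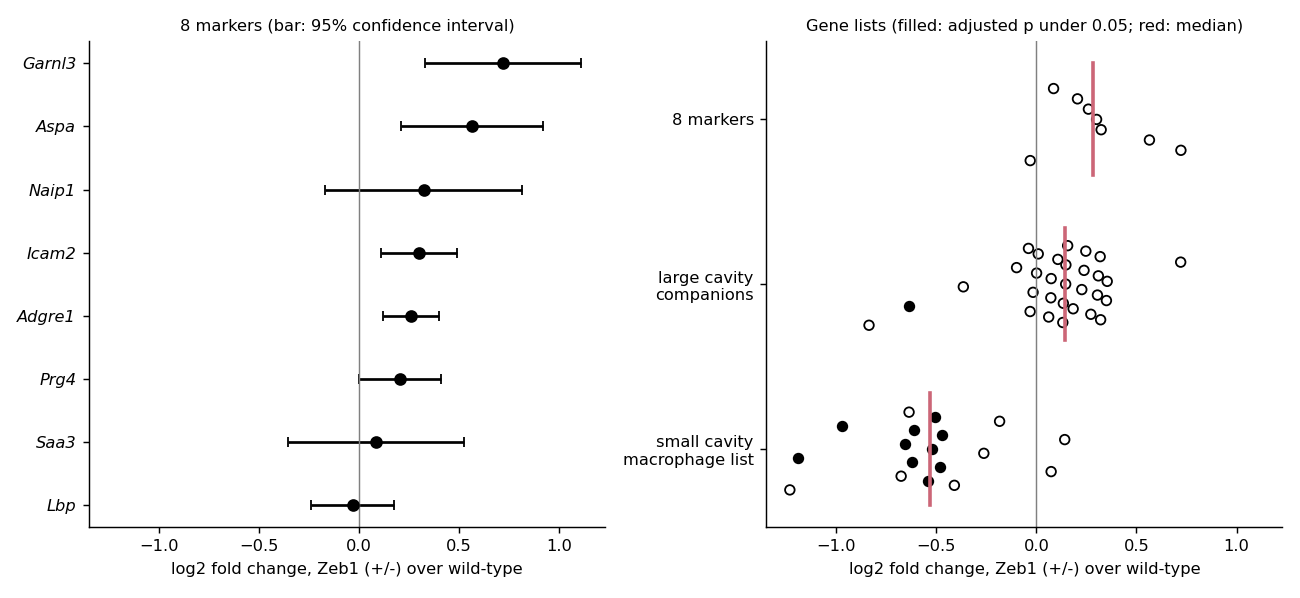
Log2 fold change, Zeb1 (+/-) over wild-type, of the 8 markers with 95% confidence intervals (left) and of the genes of 3 lists (right), where filled points have an adjusted p under 0.05 and a red line marks each median. The medians are 0.28 for the 8 markers, 0.14 for 30 other large cavity genes and −0.53 for 18 small cavity genes, and no point of the 8 markers is filled.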

How the data were processed

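The deposited gene table has 1 column of estimated counts for each of 6 libraries. Per the submitters' processing notes the authors used STAR, RSEM and edgeR (no versions or roles given) on GRCm38, and per the labels a stranded TruSeq mRNA kit. All were whole numbers and appear to have been rounded before deposit. The annotation release and strand setting are not given in the sources used here.

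Columns were mapped by the identifier in each sample's description, and wild-type and Zeb1 (+/-) samples were numbered from their titles. With R 4.3.3 and edgeR 4.0.16, genes were kept by filterByExpr (minimum count 10, minimum total 15), which left 12940. Libraries were scaled by TMM factors (0.976 to 1.01), and the genotypes were compared by the quasi-likelihood test with Benjamini-Hochberg adjustment over all tested genes and a threshold of 0.05. The SE is the log2 fold change over the square root of F. CPM uses TMM-scaled sizes, except structural RNA, which uses raw totals. 1 CPM stands for 17.9 to 42.2 counts. Exon lengths and positions came from GENCODE M21 (GRCm38), which matched 99.3% of identifiers without version, and start-site windows from RefSeq.

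Alternatives were RLE factors, no filter, at least 1 CPM in 3 libraries, the replicate number as a block, DESeq2 1.42.0, limma-voom (limma 3.58.1), robust moderation, the structural-RNA term and each library left out. The fit was tested on simulated counts. The markers, lists and tests were chosen with earlier results of these data known. Named are the 8 markers, Zeb1, list members that passed (at most 4, by p) or that with the smallest p, and the 2 genes nearest each marker. Paralogues, partners and Gata6 are named for their levels. Some list members are named because they lay above or below all wild-type libraries, or because they had an unadjusted p under 0.05.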

Additional observations from a re-analysis of the deposited data

How the results depend on the processing

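Of 112 marker fold changes under 14 other settings, 98 kept their direction and their side of the threshold, 9 passed where they had not, and 5 changed sign. With no filter on low counts the log2 fold changes of Garnl3, Aspa and Icam2 were 0.74, 0.58 and 0.32 and passed (3 markers, against 0.981% of genes higher). With DESeq2 those of Garnl3, Aspa, Icam2 and Adgre1 were 0.72, 0.57, 0.30 and 0.26 and passed (4 markers). With the structural-RNA term Lbp turned to 0.14 and Saa3 to −0.25. With 1 library left out the ranges were 0.52 to 0.91 for Garnl3, 0.44 to 0.72 for Aspa, 0.24 to 0.37 for Icam2, 0.25 to 0.28 for Adgre1, 0.12 to 0.26 for Prg4, 0.064 to 0.49 for Naip1, −0.11 to 0.082 for Lbp and −0.11 to 0.29 for Saa3, and the markers past the threshold numbered 0 to 2. At an unadjusted p under 0.05 the markers numbered 2 with the structural-RNA term and 4 to 6 under the other 13 settings. Lbp turned to 0.082 and Saa3 to −0.081 without wild-type replicate 1, and Saa3 to −0.11 without Zeb1 (+/-) replicate 3. The cause of these turns was not tested.

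Of the 30 other large cavity genes, the number that passed was 9 with no filter, 8 with DESeq2, 0 with the replicate block, 1 (a different gene) with the structural-RNA term and 0 to 2 with 1 library left out. Of the 18 small cavity genes it was 3 with the replicate block, 2 with the structural-RNA term and 1 to 11 with 1 library left out. Of all tested genes, 76 by the reported test, it was 522 with no filter, 351 with DESeq2, 15 with the replicate block, 31 with the structural-RNA term and 5 to 127 with 1 library left out. RLE factors, limma-voom, robust moderation and the filter at 1 CPM changed none of these counts by over 1.5 times. The large cavity genes that passed were 6 higher and 3 lower with no filter, and 6 higher and 2 lower with DESeq2. With no filter 207 of 21101 genes were higher and 315 lower. With DESeq2 0.913% of genes were higher and 2.03% lower.

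The titles give the same set numbers in both genotypes without saying whether a set is a pair. Deviations of same-numbered libraries from their genotype means had correlations of −0.25, −0.035 and −0.17 over tested genes. With the replicate block the log2 fold changes of the markers were within 0.03 of the reported ones and none of the 8 passed. With 3 libraries a genotype, depth was not the narrowest limit, since counting error was at most 3.07% for a marker while the spread among libraries of 1 genotype reached 30.1% for Naip1.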
